A study of Gallus gallus with 10 samples.

Results

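The transcriptome of the unoperated chicken retina was described from 5 libraries of 10 in the series, each from 1 retina of 1 embryo. They were chosen by their label alone, as the control, unoperated eyes. The embryos were wild type and of the Dekalb white strain, and had been incubated to Hamburger and Hamilton stage 23, at about embryonic day 4. The egg was windowed and the membranes around the operated eye were removed. The lens of that eye was then taken out through a dorsal slit, and both retinas were collected 6 h later. Each unoperated retina is therefore the other eye of an operated embryo, and no retina came from an embryo left untouched. The labels call the tissue the optic cup. The 5 lens-removed retinas are not compared below, and enter only the check of which genes the table lists.

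At this stage the optic cup has an inner layer, the future neural retina, and an outer layer, the future pigment epithelium. The inner layer is mostly a dividing neuroepithelium held by eye field factors such as PAX6 and SIX6, and its first neurons, the ganglion cells, appear near its centre under the factor ATOH7. Its rim will form the ciliary body and iris, the optic stalk leads to the brain, and neural crest mesenchyme, blood vessels and the lens surround or fill the cup.

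The deposited table gives normalised read counts for 12464 genes, and the libraries sum to 997234, 1008547, 1033235, 998406 and 1011210 units in embryos 1 to 5. All values of 5 libraries below are in that order and on this scale, which is not divided by gene length. They therefore give each gene's portion of the reads, and levels of different genes are not numbers of molecules. From the spacing of low values, the libraries correspond to between 22759090 and 26005360 reads, so that a value of 10 rests on 228 to 260.1 reads. The embryos are biological replicates by the labels, with no group set against them here, and so no test was made. The spread is given as the SD between embryos or as the SD over the mean in percent. In bulk tissue fewer cells of a type and less RNA per cell cannot be told apart.

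The libraries were alike in their overall profile, with Pearson's r across genes of log2(value + 1) between 0.947 (embryos 3 and 5) and 0.990 (embryos 2 and 3). Genes share libraries and depth and are no replicates. Embryos 5 and 3 most often held the extremes, on opposite sides, although embryo 3 was close to embryo 2 in r. Of 9008 genes (72.3%) that averaged at least 10, 33.3% had their highest level in embryo 5 and 30.9% in embryo 3, against 11.3% to 12.6% in each of the other 3 embryos. The lowest level fell in embryo 5 for 35.6% of these genes, in embryo 3 for 24.3% and in embryo 1 for 12.9%. In 38.2% of them 1 of these embryos, 3 or 5, was the highest and the other the lowest. The typical gene lay 11.4% from its own mean in embryo 5 and 8.997% in embryo 3, against 5.16% to 5.39% in the other embryos (medians of the absolute deviation). Several ranges that rest on embryo 5 are given without it as well.

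A few genes held a large portion of the reads. The gene of highest mean, COX1, held 3.12% ± 0.385 of the library total (SD, n = 5), the 10 highest genes 9.28% ± 0.851, the 100 highest 22.6% ± 0.844 and the 1000 highest 53.5% ± 1.001. In the single libraries the 100 highest genes held 22.1, 22.9, 23.9, 22.6 and 21.7%, most in embryo 3 and least in embryo 5. A total of 823 genes (6.60% of those listed) made up 50% of the reads and 5286 genes made up 90%. The median gene had a mean of 30.4, 78 genes reached 1000, and 8 reached 5000. All listed genes exceeded 1 in at least 5 of the 10 libraries of the series, so genes of lower level do not enter. The makeup of the top was stable, with 9 of the 10 highest genes and 77 of the 100 highest ranked that high in every library.

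**Figure D1:**
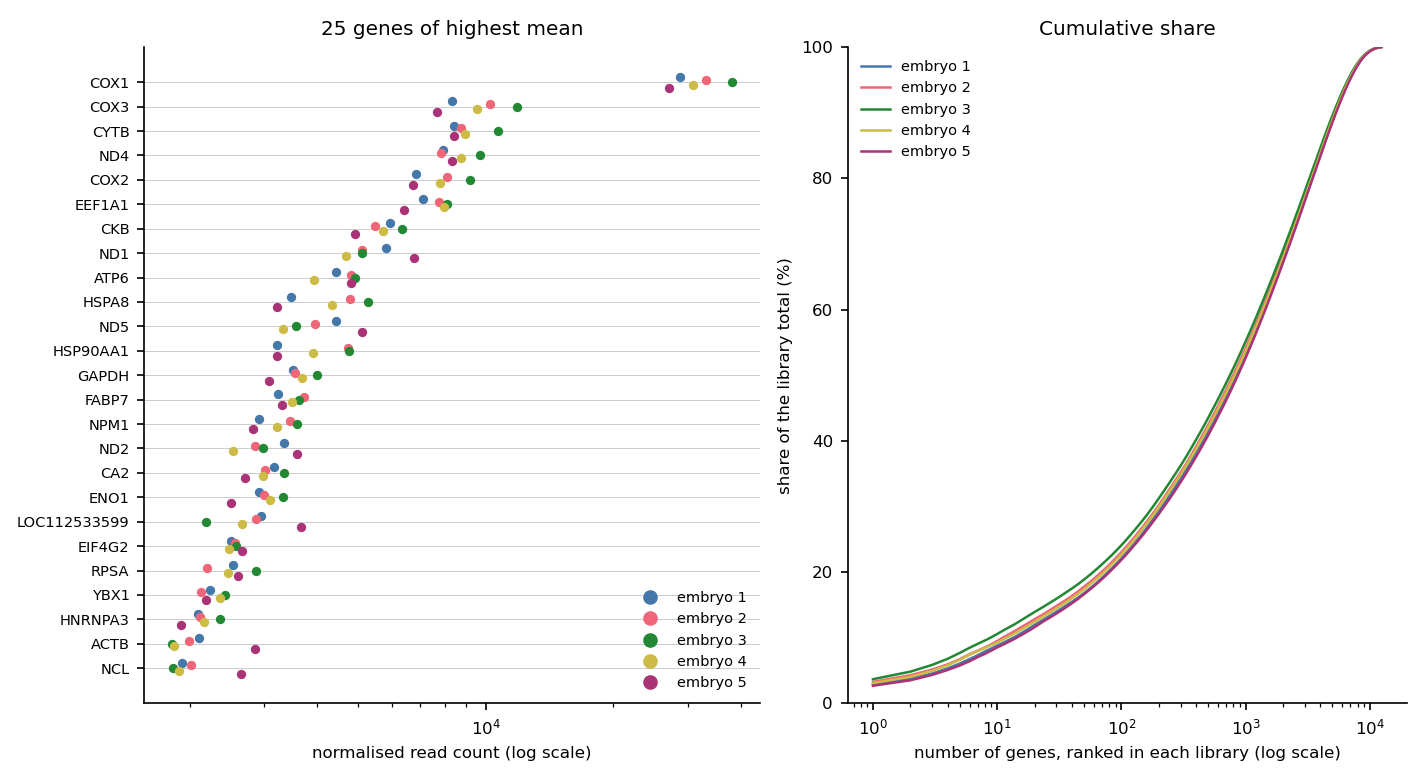
Left, normalised read count (log scale) of the 25 genes of highest mean, with 1 point for each of the 5 unoperated retinas. Right, percent of the library total held by the highest genes of each library against their number (log scale). COX1 lies above the other 24 genes in every library, and the curve of embryo 3 runs highest and that of embryo 5 lowest, with the first 100 genes of mean rank at 23.9% and 21.7%.

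Genes of the mitochondrial genome led the ranking, with 9 of the 25 highest genes and 7 of the 10 highest. COX1, the core subunit of cytochrome c oxidase, was at 28706, 33073, 38061, 30919 and 27146. COX3, a further subunit of that enzyme, reached 8302, 10216, 11876, 9506 and 7662, and CYTB of complex III 8409, 8719.6, 10677, 8943 and 8424. All 3 were highest in embryo 3. The subunits of complex I did not follow 1 order. ND4 was highest in embryo 3 with 7916, 7827, 9662, 8742 and 8315, but ND1 was highest in embryo 5 with 5807, 5093, 5090.3, 4665 and 6749, as was ND5 with 4428, 3943, 3565, 3319.8 and 5114. Summed, COX1, COX2 and COX3 came to 43838, 51382, 59099, 48224 and 41534, and ND1, ND2 and ND5 to 13567, 11885, 11625, 10518 and 15436. Embryo 3 had the highest and embryo 5 the lowest sum of the oxidase subunits. Embryo 5 had the highest and embryo 4 the lowest sum of ND1, ND2 and ND5. These sums were chosen after the values were seen. Of the 13 mitochondrially encoded genes, ND1, ND2 and ND5 are the only 3 highest in embryo 5, and 9 were highest in embryo 3. The contrast of the sums therefore follows from the choice of genes and does not describe complex I as a whole. COX1 stood at 6.48, 8.39, 10.7, 9.31 and 5.31 times the level of ND5. The genes of the mitochondrial genome thus did not keep 1 ratio between embryos.

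Outside the mitochondrial genome, the highest gene was EEF1A1, the factor that brings transfer RNAs to the ribosome, at 7115, 7745, 8119, 7959 and 6412. CKB, the brain form of creatine kinase, followed with 5938, 5471, 6339, 5705 and 4911. The chaperone genes HSPA8 and HSP90AA1, whose proteins fold client proteins in the cytosol, were at 3467, 4769.8, 5266, 4342 and 3219 and at 3209, 4723, 4758, 3915 and 3209.9. Both chaperone genes were higher in embryos 2 and 3 than in the other 3 embryos, by up to 1.64 times from lowest to highest for HSPA8.

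FABP7, a fatty acid binding protein of neural progenitors, was even across embryos at 3223, 3719, 3629.9, 3477 and 3308 (6.03% SD over mean). CA2, a carbonic anhydrase made by embryonic chick retina as well as by red cells, had 3153, 3011, 3334, 2975 and 2699. Levels of this kind put both genes among the 17 highest in the retina. GAPDH and ENO1 of glycolysis averaged 3560.0 ± 334 and 2962 ± 302 (SD, n = 5).

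The nucleolar genes NPM1 and NCL, whose proteins act in ribosome assembly, differed in pattern. NPM1 was at 2916, 3447, 3587, 3217 and 2823, highest in embryo 3. NCL was at 1916, 2013, 1828, 1888 and 2645, at most 2013 in 4 embryos and higher in embryo 5. EIF4G2, a translation initiation factor, was the steadiest of the 25 highest genes, at 2497, 2552, 2577, 2477 and 2652 (2.73% SD over mean). The others among the 25 were ATP6, COX2 and ND2 of the mitochondrial genome, the ribosomal protein RPSA, the RNA binding proteins YBX1 and HNRNPA3, the cytoskeletal actin ACTB, and LOC112533599. The RefSeq table of a later chicken build lists LOC112533599 as ribosomal RNA, in libraries that were selected for polyadenylated RNA. It was at 2946, 2871, 2186, 2652 and 3664, lowest in embryo 3 and highest in embryo 5.

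By class, the 13 mitochondrially encoded genes held 8.62% ± 0.651 of the library total (SD, n = 5) and 71 cytosolic ribosomal protein genes 5.37% ± 0.355. In the single embryos the mitochondrially encoded genes held 8.17, 8.75, 9.695, 8.38 and 8.11%, and the ribosomal proteins 5.401, 5.39, 5.49, 5.77 and 4.79%. Embryo 3 was highest for the mitochondrial genes, and embryo 5 was the lowest for both classes. A total of 60 of the 71 ribosomal protein genes were at their lowest in embryo 5, against 35.6% of all genes averaging at least 10. RPSA, of the small subunit, averaged 2528 ± 242, and RPL4, of the large subunit, 2005 ± 99.5. Of the 100 highest genes 23 code for ribosomal proteins.

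Translation factors held 2.59% ± 0.0729 of the total over 56 genes, and splicing and RNA binding proteins 2.07% ± 0.0305 over 40 genes, with HNRNPA3 (2125) and HNRNPA2B1 (1655) at their head. The 24 chaperones held 1.93% ± 0.245, at 1.69, 2.15, 2.18, 1.96 and 1.67%. Embryos 2 and 3 were highest and embryos 1 and 5 lowest for this class. Within it, 14 of 24 chaperones had their highest level in embryo 3, against 30.9% of all genes, and 9 each had their lowest in embryos 1 and 5, against 12.9% and 35.6%. The CCT chaperonin subunits with TCP1, which fold actin and tubulin, summed to 4749, 5583, 5845, 5279.8 and 4743 and kept the same order of embryos at the top.

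Summed, genes of dividing cells were among the steadiest classes. Single members averaging at least 10 had a median SD over mean of 10.2% in DNA replication and 9.66% in mitosis. The median of all 9008 genes of that mean was 10.3%. DNA replication genes held 0.677% ± 0.0126 of the total and mitosis genes 1.14% ± 0.0253. PCNA, the sliding clamp of DNA polymerase, was at 685, 642, 709, 687 and 579, and RRM1, a subunit of ribonucleotide reductase, at 627, 625, 686, 627 and 572. Both were lowest in embryo 5. MKI67, a chromosome surface protein of cycling cells, was at 919.8, 1047, 1007, 941 and 809. SMC2 of the condensin complex was at 1175, 825, 716, 1375 and 1182 and had a different order of embryos, with embryos 2 and 3 the lowest. The summed DNA replication genes ranged only 1.05 times from the lowest to the highest embryo, and the mitosis genes 1.07 times.

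Other housekeeping classes held between 0.682% and 1.22% of the total. Glycolysis enzymes held 1.22% ± 0.0433, nuclear genes of the respiratory chain 0.931% ± 0.0362, nucleolar proteins 0.963% ± 0.0362, histones and high mobility group proteins 0.789% ± 0.0348 and proteasome subunits 0.682% ± 0.0193. Among the 80 nuclear respiratory genes, ATP5F1B, the beta subunit of the ATP synthase, averaged 593 ± 99.96. HMGN5 (1251) and HMGB1 (1176), which bind nucleosomes and DNA, led the chromatin proteins. PSMD1 (432) and PSMA7 (347) led the proteasome. The 1202 provisional LOC symbols held 1.95% ± 0.153, and LOC776067 ranked below LOC112533599 with a mean of 678.

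Summed, the cytoskeleton and matrix classes were highest in embryo 5. The actin and tubulin class also takes MYL and TMSB symbols, cofilin, profilin and vimentin. It held 1.33, 1.21, 1.16, 1.22 and 1.49% of the total. ACTB was at 2105, 1986, 1816, 1836 and 2843, TUBA1A1 at 1740.4, 1507, 1554, 1581 and 1859 and TUBB, a beta tubulin, at 1098, 799, 626, 737 and 1689, all with embryo 5 on top. The actin and tubulin sum rested on these 3 genes, since without them it was 8291, 7917, 8011, 7991 and 8661, a range of 1.09 times. Of the 32 members averaging at least 10, 11 had their highest level in embryo 5 (33.3% of all genes) and 11 their lowest (35.6%). Collagens and matrix genes held 0.455, 0.463, 0.388, 0.413 and 0.591%, and 25 of the 31 members with a mean of at least 10 had their highest level in embryo 5, against 33.3% of all genes. COL12A1, at 5.61, 11.4, 10.7, 9.58 and 25.8, reaches that mean only through embryo 5. Over all 50 members found, with no limit on the mean, 36 were highest and 3 lowest in embryo 5, and no share of all listed genes was taken for this count.

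Among matrix genes, COL2A1, the fibrillar collagen of cartilage and of the vitreous, was the highest at 1049.6, 965, 694, 735 and 1467. Embryo 5 was 2.11 times embryo 3 for this gene, and the range without embryo 5 was 1.51 times. COL9A1, a collagen IX chain of the vitreous and of the rim of the cup, was far more even at 458, 532, 454, 478 and 496 (6.601% SD over mean). With COL9A2 and COL9A3 it summed to 1255, 1306, 1130.5, 1216 and 1299.9.

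**Figure D2:**
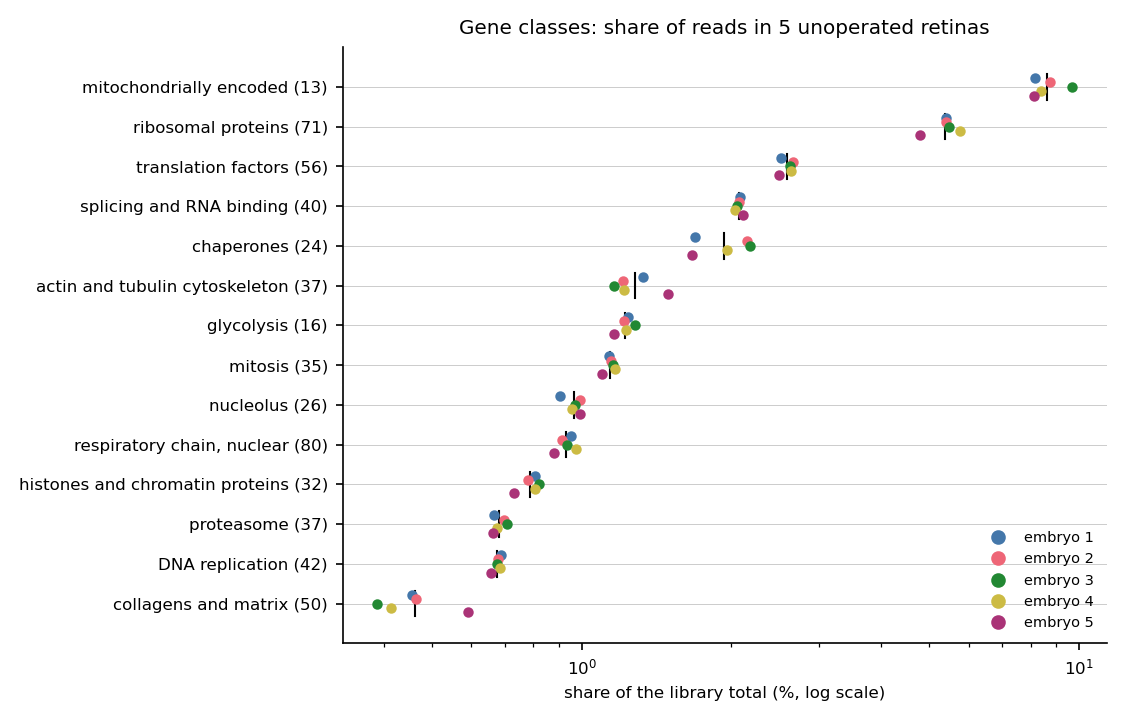
Percent of the library total (log scale) held by 14 gene classes, with the number of genes in brackets, 1 point per unoperated retina and a bar at the mean of 5. The mitochondrially encoded genes reach 9.695% in embryo 3. Embryo 5 is lowest for ribosomal proteins (4.79%) and highest for the actin and tubulin class (1.49%) and for collagens and matrix (0.591%).

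The labelled tissue was checked against PAX6, ATOH7 and ALDH1A1. PAX6, the paired and homeobox factor of the eye field, was at 362, 343, 328, 337 and 414 (mean 357 ± 34.2, SD, n = 5) and ranked 405 of 12464. ATOH7, the basic helix-loop-helix factor of ganglion cell precursors, was at 26.3, 41.6, 29.8, 30.1 and 16.4 (mean 28.8 ± 9.03). ALDH1A1, the enzyme that makes retinoic acid in the dorsal retina, was at 857, 508, 540.3, 835 and 773 (mean 703 ± 166). All 3 were present in all 5 libraries, and ATOH7 varied most, with embryo 2 at 2.53 times embryo 5. No HOX cluster symbol was among the listed genes. SOX2, FZD5, POU4F1, CRX and INSM1 are members of the lists that were not analysed here.

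Progenitor and eye field genes were read in all embryos. Of 21 listed, 18 were found and 17 had a mean of at least 10. Their sum was 2820.3, 2412, 2314, 2416 and 2882 (mean 2569 ± 262), so that the highest embryo was 1.25 times the lowest. After PAX6 the highest members were MEIS2, a cofactor of homeobox proteins, at 304, 297, 319, 303 and 389, and SFRP1, a secreted Wnt antagonist, at 367, 284, 293, 287 and 316. SIX6, a homeobox factor of the retina, was at 294, 211, 208, 224 and 254. MEIS2 was at most 319 in 4 embryos and higher in embryo 5, whereas SFRP1 and SIX6 were highest in embryo 1.

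LHX2, a LIM homeobox factor needed for the optic cup, was the steadiest progenitor gene at 129.6, 132, 128, 128 and 145 (5.499% SD over mean). OTX2, a factor of the pigment epithelium and of photoreceptor precursors, was the most variable at 17.9, 19.96, 14.6, 16.5 and 35.8 (40.8%). Embryo 5 was at 2.01 times the median of OTX2 over the 5 embryos, and no other progenitor gene had an embryo above 2 times the median of that gene. Embryos 1 to 4 lay within 1.37 times of each other for OTX2. HES5, a Notch target of progenitors, went the other way, at 48.2, 42.9, 47.5, 49.9 and 21.003, with embryo 5 the lowest. CCND1, the cyclin of retinal progenitors, was at 264, 224, 229, 237 and 215. HES5 and CCND1 are given outside the naming rule and were chosen after their values were seen.

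Of the neurogenesis genes 15 of 16 were found, and their sum was 397, 342, 279.9, 333 and 319.6, highest in embryo 1 and lowest in embryo 3. DLL1, the Notch ligand of newborn neurons, led at 129, 102, 94.5, 108 and 106. SOX11 and SOX4, factors of young neurons, were at 40.1, 40.4, 33.5, 39.3 and 57.5 and at 31.8, 27.03, 23.96, 26.1 and 34.99, both highest in embryo 5. MYT1, a zinc finger factor of differentiating neurons, was at 19.2, 11.998, 7.31, 9.71 and 11.6, and BTG2, an antiproliferative gene, at 12.4, 11.9, 10.7, 11.4 and 11.3. These were the most and the least variable genes of this list with a mean of at least 10, at 37.3% and 5.48%. The proneural factor NEUROG2 had a mean of 4.18.

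Ganglion cell and neuron genes summed to 1970.3, 1952, 1768, 1762 and 1850.1 over 14 of 18 listed. DCX, a microtubule protein of young neurons, made up most of this at 1390.1, 1470.0, 1322, 1309 and 1425. The sum ranged 1.12 times between embryos and the median of the members 1.39 times. Members averaging at least 10 had a median SD over mean of 13.4%. The neurofilament gene NEFM was at 159.6, 139, 126, 122 and 111, ELAVL4, an RNA binding protein of neurons, at 125, 116, 111, 112 and 88.9, and NEFL at 88.01, 82.4, 82.4, 73.3 and 55.2. All 3 were highest in embryo 1 and lowest in embryo 5, and DCX was not. ISL1, a LIM homeobox factor of ganglion cells, was low in all embryos at 6.04, 3.19, 1.64, 3.65 and 3.48.

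Genes listed for photoreceptor, horizontal and amacrine cells held few reads. Of 14 listed, 10 were found and 3 had a mean of at least 10. VSX1, a homeobox factor of bipolar cells, was at 85.1, 64.1, 59.9, 72.98 and 46.9, ONECUT2, a factor of horizontal cell precursors, at 37.4, 20.96, 10.6, 24.1 and 27.9, and THRB, the thyroid hormone receptor of cone precursors, at 29.97, 21.1, 20.1, 23.6 and 16.7. All 3 were highest in embryo 1. VSX1 averaged 65.8 of a mean list sum of 142, and which cells its reads came from was not tested. BHLHE22, a factor of amacrine and bipolar cells, averaged 7.39 ± 0.826.

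**Figure D3:**
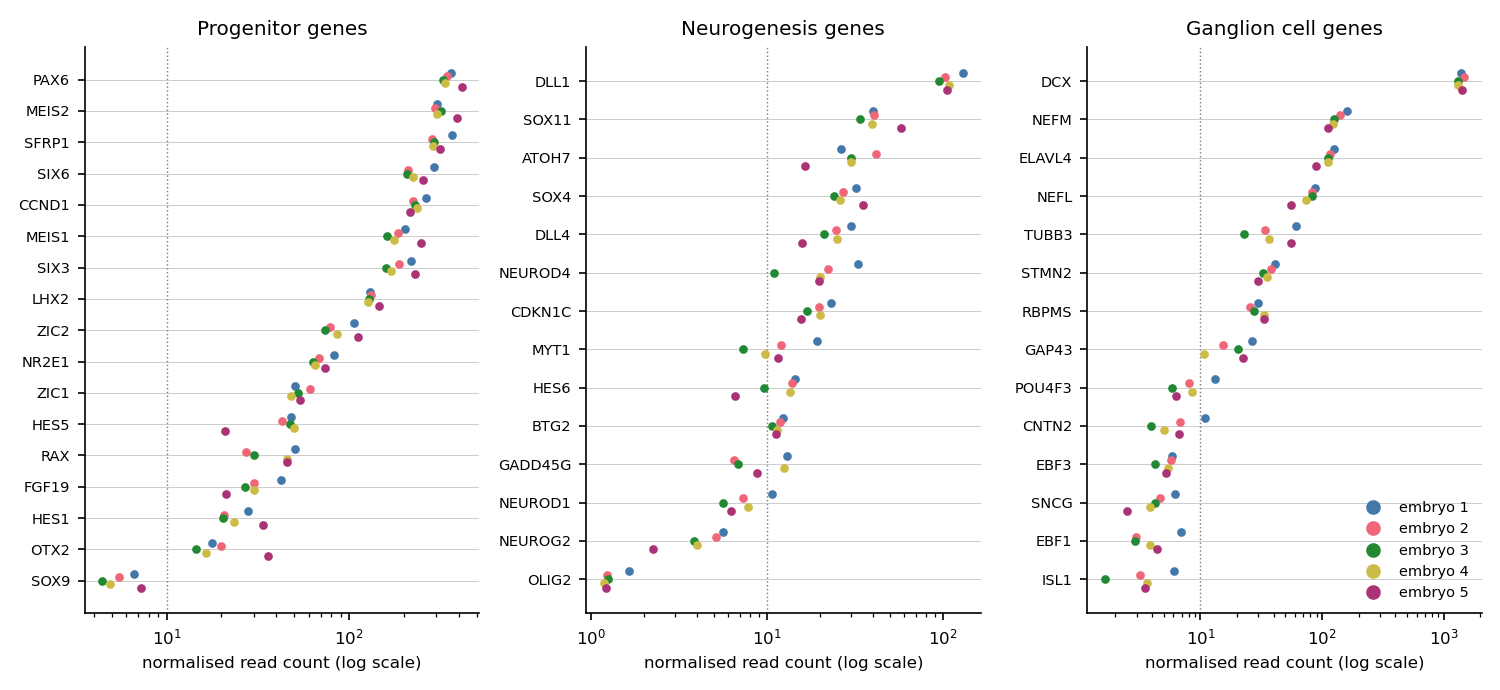
Normalised read count (log scale) of the progenitor, neurogenesis and ganglion cell genes shown, 1 point per unoperated retina, ordered by mean. The progenitor genes range from a mean of 5.73 (SOX9) to 357 (PAX6). Embryo 5 lies to the left of the others for ATOH7 (16.4) and HES5 (21.003) and to the right for OTX2 (35.8).

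Genes of every region of the retina were read. The dorsal list summed to 1749.6, 1349.7, 1357, 1668 and 1796 and the ventral list to 691, 815, 971, 861 and 1009. ALDH1A3, the retinoic acid enzyme of the ventral retina, was at 271, 365, 523, 410.1 and 425, and ALDH1A1 stood at 3.16, 1.39, 1.03, 2.04 and 1.82 times its level. Embryo 1, with the highest ALDH1A1, had the lowest ALDH1A3, and embryo 3 was nearly balanced between them. ALDH1A1 is 1 of 193 genes described below that were low together in embryos 2 and 3. Without it the dorsal list summed to 892, 842, 817, 833 and 1023, highest in embryo 5 and lowest in embryo 3.

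On the dorsal side, EFNB1, an ephrin, was at 245, 224, 198, 207 and 303, CYP1B1, a cytochrome that can make retinoic acid, at 219, 188, 198, 217 and 265, and BAMBI, a decoy receptor of BMP signals, at 158, 156, 172, 159.9 and 124. GDF6, a BMP ligand, was low and even with a mean of 6.93 ± 0.368. On the ventral side, the ephrin receptor EPHB2 was at 196, 180.0, 170.2, 173 and 258. RDH10, which makes retinaldehyde, was at 59.98, 106, 102, 95.2 and 93.005, lowest in embryo 1. Of the other members of the ventral list, ALDH6A1 (50.1 ± 4.34) and BMPR1B (33.99 ± 2.64), the second a BMP receptor, varied by under 10%. Whether ALDH6A1 marks the ventral retina was not tested, so its evenness is not read as that of a ventral gene. NTN1, the netrin of the ventral retina and stalk, was at 10.9, 14.2, 17.7, 20.8 and 33.5, and embryo 5 had 3.08 times the level of embryo 1. Without embryo 5 the range of NTN1 was 1.91 times.

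In the nasotemporal axis, the nasal list summed to 159, 117, 104, 149 and 186 and the temporal list to 545, 502, 572, 501 and 461. EFNA5, an ephrin of the nasal retina, was at 78.2, 41.5, 39.9, 78.1 and 99.9. The zinc finger factor SALL1 was at 52.6, 49.9, 46.1, 50.2 and 50.01 (4.72%). EFNA2 and HMX1, an ephrin and a homeobox factor, averaged 11.8 ± 3.52 and 8.66 ± 2.31. EPHA3, an ephrin receptor of temporal axons, was at 361, 368, 420.0, 359.5 and 337 and CRABP1, a retinoic acid binding protein, at 132, 92.9, 107, 89.9 and 72.4. The factor FOXD1 was at 38.7, 30.1, 34.1, 40.6 and 41.5, and EPHA5 averaged 11.3 ± 1.099. The nasal sum ranged 1.79 times between embryos and the temporal sum 1.24 times.

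Of the anterior rim genes 13 of 14 were found, with a sum that differed little between embryos, at 1614, 1924, 1754, 1757 and 1945. GJA1, the gap junction protein connexin 43, was at 586, 789, 732, 698 and 689, lowest in embryo 1. CPAMD8, a secreted protein needed for anterior eye structures in humans, was at 198, 214, 190.0, 197 and 218, and FZD4, a Wnt receptor, at 151, 128, 126, 144 and 185. COL9A1, given above, belongs to this list as well. The sum ranged 1.205 times and was led by GJA1 and COL9A1, while the median of the members ranged 2.197 times. Of the 11 members averaging at least 10, 8 had their highest level in embryo 5, against 33.3% of all genes, and 5 their lowest in embryo 1, against 12.9%. CDH6, a cadherin, was low and the most variable of the list at 1.899, 3.31, 2.61, 2.59 and 6.11.

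The optic stalk genes were few in reads, at 84.95, 86.5, 89.04, 95.6 and 138 summed over 5 of 6 listed. PAX2, the paired box factor of the stalk and ventral cup, was at 35.5, 32.8, 32.8, 35.4 and 52.02, VAX1, a homeobox factor of the stalk, at 16.5, 15.9, 17.3, 17.8 and 22.3, and SEMA5A, a semaphorin of the optic nerve, at 16.6, 17.8, 17.7, 17.9 and 22.6. Embryo 5 was above the others in all 3, and in all 4 members with a mean of at least 10, against 33.3% of all genes. VAX1, PAX2 and NTN1 are in the ventral list too.

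Markers of some tissues next to the retina differed more between embryos than the progenitor and ganglion cell lists. Of all 12464 listed genes, 1.63% had a level in embryo 5 above 2 times the median of that gene over the 5 embryos, and 0.217% to 0.313% did so in each of the other 4. Among all members found, embryo 5 passed this mark in 6 of 12 pigment genes, 7 of 16 mesenchyme genes and 5 of 6 red cell genes, and embryos 1 to 4 in none of them. Embryo 5 also passed it in 2 of 6 surface ectoderm genes, 1 of 10 endothelial genes and 11 of 50 collagens and matrix genes. The mark was passed there by 0 of 9 lens, 0 of 5 white blood cell, 0 of 3 crest and glial and 0 of 3 muscle genes. White blood cell genes, none of which averaged 10, passed it in other embryos, 1 of 5 in embryo 2 and 2 of 5 in embryo 3. Retinal progenitor genes passed it in 1 of 18 and ganglion cell genes in 0 of 14. Among members averaging at least 10 the mark was passed by 3 of 6 pigment, 2 of 6 mesenchyme and 4 of 5 red cell genes, against 0.699% of the 9008 genes of that mean, but HBA1 and HBE reach that mean only through embryo 5. The part of these tissues in the other values of embryo 5 was not tested.

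Pigment epithelium genes summed to 347, 531, 449.8, 400.3 and 805 over 12 of 18 listed, with embryo 5 at 2.32 times embryo 1. Without embryo 5 the highest was 1.53 times the lowest. TRPM1, a cation channel of pigment cells, was the highest member and rather even, at 245, 309, 281, 244 and 325. PMEL, the protein of melanosome fibrils, was at 27.6, 56.6, 38.8, 41.9 and 199.8, and DCT, an enzyme of melanin synthesis, at 13.99, 45.9, 29.6, 25.7 and 94.9. MITF, the master factor of pigment cells, was at 21.7, 33.1, 30.7, 27.5 and 47.6. In all 4 the highest embryo was 5.

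The melanin genes DCT, TYR, TYRP1, PMEL, OCA2 and SLC45A2 summed to 62.3, 157, 112, 103 and 388, a range of 6.22 times, with embryo 1 the lowest, embryo 5 the highest and embryo 2 next to it. Without embryo 5 the range was 2.52 times. RPE65 and TTR, later or strong markers of this epithelium, were not analysed here.

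Periocular mesenchyme genes summed to 109, 149.6, 192, 175 and 309 over 16 of 22 listed, a range of 2.84 times and of 1.76 times without embryo 5. COL1A2, a collagen I chain, was at 16.1, 20.9, 27.7, 23.5 and 75.1 and COL1A1 at 2.87, 2.46, 3.91, 4.53 and 25.8. LUM, a corneal proteoglycan, was at 8.44, 13.2, 18.8, 17.4 and 30.1. EYA2, a transcription cofactor, was at 28.1, 26.6, 29.8, 28.7 and 20.8 and alone of the named members lowest in embryo 5. Embryo 1 was the lowest for 5 of the 6 members with a mean of at least 10, against 12.9% of all genes. A total of 10 members had a mean below 10.

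The red cell list was dominated by CA2, which the retina makes itself, so it was also read without that gene, a choice made after seeing the data. Of 19 listed members 6 were found, and only 5 haemoglobin chains then remained. They summed to 30.03, 44.2, 49.2, 51.7 and 378. HBBR and HBZ, embryonic globins of the beta and alpha type, were at 11.5, 16.3, 16.9, 18.8 and 143 and at 7.85, 12.3, 14.7, 16.96 and 108, and HBA1 was at 4.26, 6.23, 6.68, 6.55 and 54.96. Embryo 5 stood at 12.6 times the lowest embryo for the sum, while embryos 1 to 4 lay within 1.72 times of each other. All 5 chains were highest in embryo 5, where they made up 0.0374% of the reads. ALAS2, GATA1 and SLC4A1 are on the list but were not among the members found.

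White blood cell genes were close to the lower limit of the table. Of 11 listed, 5 were found and none had a mean of at least 10. Their sum was 6.63, 12.2, 15.9, 11.2 and 9.9004. LCP1, an actin bundling protein of leukocytes, averaged 3.83 ± 0.7101, CSF1R, the receptor of macrophage growth factor, 2.38 ± 1.19, PTPRC, the CD45 antigen, 1.98 ± 0.582 and CTSS, a protease of macrophages, 1.54 ± 1.05. Embryo 3 had the highest sum and embryo 5 did not stand out.

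Endothelial genes summed to 69.9, 63.9, 123, 90.03 and 110.4 over 10 of 11 listed. PECAM1, an adhesion molecule of endothelium and platelets, was at 33.6, 20.5, 61.96, 36.5 and 41.1 and KDR, a receptor of vascular endothelial growth factor that retinal progenitors make too, at 15.6, 18.7, 18.7, 17.6 and 19.9. CDH5, the cadherin of endothelium, was at 6.92, 8.73, 17.3, 12.96 and 18.5. KDR was even while PECAM1 and CDH5 ranged 3.02 and 2.68 times. FLI1 averaged 4.63 ± 1.83 and ESAM 1.13 ± 0.729. Embryos 3 and 5 had the highest sums of this list and embryo 2 the lowest, an order that the haemoglobins did not share.

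Few lens genes were found, with 9 of 20 listed. ASL1, the delta crystallin gene of the chick lens, was low at 2.83, 2.19, 3.06, 2.67 and 2.34, and CRYBA1 at 1.899, 0.846, 0.631, 0.967 and 0.965. CRYBA4, a beta crystallin, was the highest member at 109, 94.6, 79.6, 79.001 and 71.9, followed by MAF, a transcription factor of the lens and other tissues, with a mean of 47.6 ± 3.91 and CRYAB, a small heat shock protein, with 27.6 ± 3.68. BFSP2, a filament protein of lens fibres, was at 10.6, 8.77, 8.41, 9.62 and 2.39. Embryo 1 was the highest and embryo 5 the lowest for CRYBA4 and for the sum of the list, which was 221, 185, 175, 182 and 164. CRYAA and CRYBB1 were not analysed here.

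Surface ectoderm genes summed to 47.2, 55.6, 51.4, 47.3 and 65.1. EPCAM, an epithelial adhesion molecule, averaged 20.3 ± 2.33, the factor GRHL3 16.002 ± 1.55 and keratin KRT19 8.53 ± 3.13. KRT8 was at 2.95, 2.65, 2.61, 2.32 and 7.07 and CDH1, the epithelial cadherin, at 1.41, 0.961, 0.981, 1.46 and 3.67. Both were low, with embryo 5 apart from the others. EPCAM and KRT19 were highest in embryo 5 as well, whereas GRHL3 was lowest there, at 17.3, 17.3, 15.9, 16.1 and 13.5. Crest and glial genes were led by EDNRB, an endothelin receptor, with 36.6 ± 4.803, while S100B averaged 1.08 ± 0.0874. Muscle genes were led by DES, the filament protein desmin, with 23.01 ± 5.16, TNNC1 with 10.3 ± 2.84 and ACTA1 with 1.95 ± 0.452. Only 3 of 8 and 3 of 10 members of these last lists were found, which limits what they show.

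**Figure D4:**
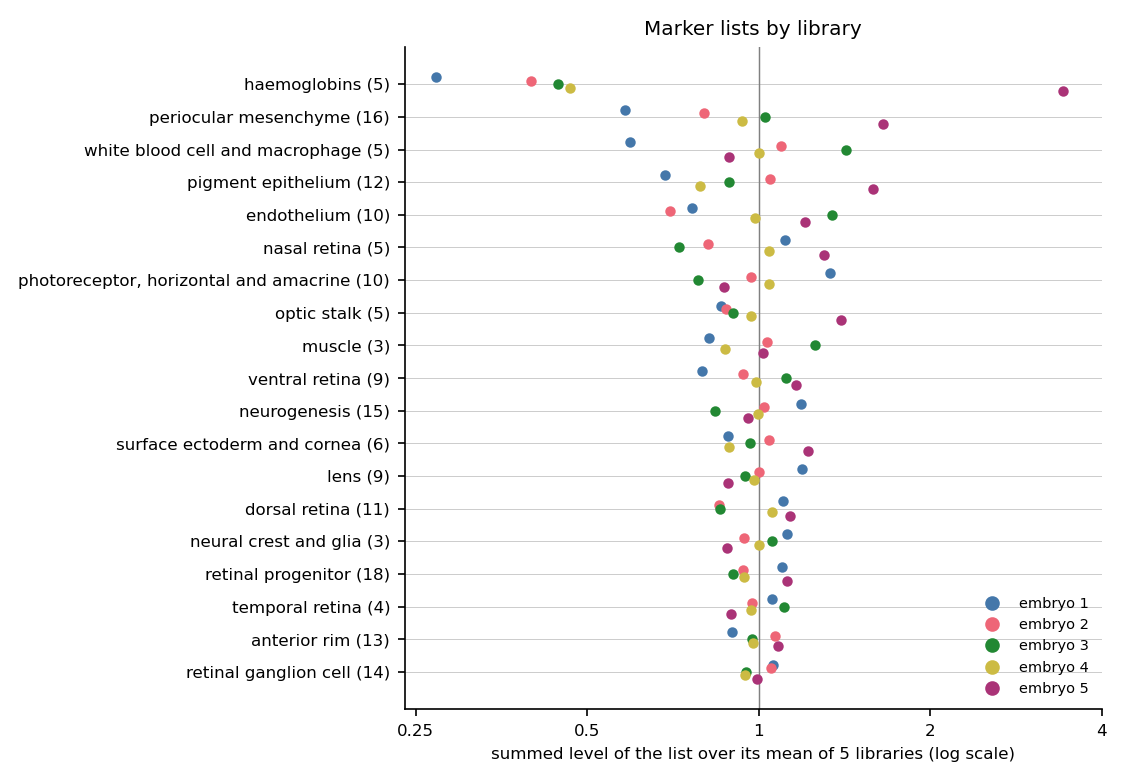
Summed level of each marker list in each unoperated retina over the mean of the 5 retinas (log scale), ordered by range. The number of members found is in brackets, and the red cell list is shown by its haemoglobins alone. Embryo 5 lies to the right for haemoglobins, periocular mesenchyme and pigment epithelium, with sums of 378, 309 and 805. The ganglion cell sum, most of which is DCX, varies by 5.29% (SD over mean).

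Between embryos, most genes varied little. Of the 9008 genes averaging at least 10, the median SD over mean was 10.3% (quartiles 6.99% and 15.6%), and 84.7% of them were under 20%. Counting of reads alone would give a median of 2.85%, and the median with that part taken off was 9.79%. The spread fell with level at first, with medians of 14.01% for means of 10 to 20 and 9.31% for means of 50 to 100, and then stayed at 8.04% to 9.39% for all higher levels. Without embryo 5 the median was 7.98%, and without any other single embryo 9.83% to 11.04%.

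The steadiest genes averaging at least 50 lay below or close to what counting would give. ACSS2, an acetyl-CoA synthetase, was at 63.7, 63.8, 64.2, 63.5 and 62.97 (0.698% SD over mean). TTL, the tubulin tyrosine ligase, was at 201, 198, 198, 198 and 199 (0.698%), and DHX15, a splicing helicase, at 334, 328, 330.3, 334 and 333 (0.787%). The next were PRPF38B and SNRNP27, which act in splicing, PPP4R3B, a phosphatase subunit, CGGBP1, a DNA binding protein, PAK1, a kinase, SLC12A4, a potassium chloride cotransporter, and VDAC2, a channel of the outer mitochondrial membrane, all between 0.814% and 1.099%. Over all 9008 genes, 213 (2.36%) were below their counting spread.

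Genes commonly used as references were not the steadiest. YWHAZ varied by 7.63%, TBP by 7.76%, PPIA by 8.27%, SDHA by 8.47% and GAPDH by 9.39%. Of the 9008 genes averaging at least 10, 29.95% varied less than YWHAZ, 43.1% less than GAPDH and 84.6% less than ACTB, at 19.96%. This set of reference genes was chosen outside the naming rule. GAPDH was highest in embryo 3 and lowest in embryo 5, while ACTB was the reverse, so the ratio of these genes moved with the embryo.

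At the variable end, 60 of 9008 genes (0.666%) had an SD above 50% of the mean, and 21 an SD above 100%. A total of 32 of the 60 had their highest level in embryo 5 and 14 in embryo 3. Without embryo 5 the number above 50% was 31. For comparison, 33.3% and 30.9% of all 9008 genes were highest in embryo 5 and in embryo 3. Some of the 60 reach a mean of 10 only through 1 or more high embryos, and 33 of them had a median of at least 10. With that limit set on the median instead, 34 of 8959 genes (0.3795%) had an SD above 50% of the mean, 19 highest in embryo 5 and 5 in embryo 3. Patterns among these genes, and among all 9008, are described next.

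The first pattern set embryos 2 and 3 far above the others. In 12 genes (0.133% of 9008) both of these embryos exceeded 10 times the highest of the other 3. All but HINTW and LOC107049046 had a median below 10 and so reached a mean of 10 only through embryos 2 and 3. HINTW was at 6.04, 988, 1088, 5.45 and 28.5, HNRNPKL at 2.74, 369, 379, 2.26 and 8.26 and ATP5A1W at 2.61, 247, 254, 2.13 and 7.26. HINTW is known as a gene of the avian W chromosome, which females carry, and ATP5A1W and SMAD2W are named for it. The labels give no sex of the embryos, and none was assigned here.

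TERAL2 was at 1.43, 245, 268, 1.53 and 7.57, CHDB1 at 1.06, 133, 136, 1.07 and 3.13 and LOC107049046 at 7.84, 214, 228, 6.72 and 12.4. The other 6 were NIPBLL, UBAP2, LOC112530494, LOC107055485, SMAD2W and MIER3L, which lie under a mean of 50 and were named after their values were seen. Summed, the 12 genes came to 26.6, 2614, 2787, 23.1 and 79.8. Embryo 5 was low but lay above embryos 1 and 4 in 12 of 12 genes. That count may be set in part by the listing rule, a level above 1 in at least 5 of the 10 libraries. In SMAD2W, MIER3L, UBAP2, LOC112530494 and LOC107055485 only embryo 5 of embryos 1, 4 and 5 exceeded 1. Among the 10 pairs of embryos, only embryos 4 and 5 had any other gene of this kind, with 2 provisional symbols, LOC770705 and LOC107052718. These 2 also reached a mean of 10 only through the embryos in which they were high.

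The second pattern was the opposite and milder. In 193 genes (2.14% of 9008) embryos 2 and 3 both lay below 0.75 times the lowest of the other embryos, against 1 to 18 genes for each of the other 9 pairs. By mean, the first 6 of these were RPS6, SMC2, RPL17, ATP5A1Z, ALDH1A1 and RPS23. RPS6, a ribosomal protein gene, was at 1920.2, 1113, 1152, 2095 and 1709 and RPL17 at 1107, 593, 641, 1244 and 946. Of the 71 ribosomal protein genes, 3 were in this group. ATP5A1Z, the alpha subunit of the ATP synthase, was at 905, 494, 517, 927 and 854. RPS6, RPL17 and RPS23, with VCP and RAX below, fall outside the naming rule.

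ATP5A1Z and ATP5A1W code for near-identical proteins, and how reads were split between them was not tested. In embryos 1, 4 and 5 ATP5A1W was at 2.61, 2.13 and 7.26, beside 905, 927 and 854 for ATP5A1Z. Few reads fell to ATP5A1W in these embryos. The sum of both genes was 908, 741, 771, 929 and 861. Embryos 2 and 3 were the lowest in that sum as well, which ranged 1.25 times against 1.87 times for ATP5A1Z alone. RPS6, ATP5A1Z and ALDH1A1 are known as genes of the Z chromosome. CHD1Z, SPIN1Z, HINT1Z and SMAD2Z of the same group are named for it, and were picked by their symbols. The chromosome of the other genes of the group was not looked up. ALDH1A1, the dorsal marker used to check the tissue, had its 2 lowest values, 508 and 540.3, in embryos 2 and 3. The other dorsal genes that average at least 10 were not in this group. The eye field factor RAX, at 50.9, 27.3, 30.1, 45.7 and 45.98, and EFNA5, given above, were in it as well. VCP, an ATPase of protein turnover, was at 314, 173, 145, 279 and 410.3.

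A further pattern set embryo 5 above the rest. It held the haemoglobins, PMEL, DCT and COL1A2 given above, and at lower spread a number of regulators and cytoskeletal genes. Among genes averaging at least 50, ZFHX3, a zinc finger homeobox factor, was at 63.5, 57.8, 45.8, 56.8 and 128 and KMT2D, a histone methyltransferase, at 82.6, 67.3, 48.4, 62.7 and 147. LRP1, a lipoprotein receptor, was at 171, 157, 112, 123 and 298, FLNA, an actin crosslinker, at 58.5, 50.1, 34.6, 44.5 and 97.6 and SYNGR1, a vesicle protein, at 109, 122, 93.96, 103 and 234. In ZFHX3, KMT2D, LRP1, FLNA and SYNGR1 embryo 3 was the lowest and embryo 5 the highest. The haemoglobins, PMEL, DCT and COL1A2 were instead lowest in embryo 1. ZNF628, LOC107050620, LOC107051050 and LOC100857358 were also lowest in embryo 3 and highest in embryo 5, with SDs of 43.04% to 49.5% of the mean.

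Of the 20 most variable genes averaging at least 50, 12 were highest in embryo 5, counting PMEL and TUBB, and 6 were of the kind led by HINTW. Of those 12, PMEL was lowest in embryo 1 and the others in embryo 3. ASPH, an aspartate hydroxylase, was at 43.1, 159, 285, 46.7 and 46.6, high in embryos 2 and 3 but with embryo 5 no higher than embryo 4. MEGF10, a receptor that spaces retinal neurons in the mouse, was at 102, 32.8, 27.7, 53.5 and 49.04, highest in embryo 1, and is one of the 193 genes low in embryos 2 and 3.

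**Figure D5:**
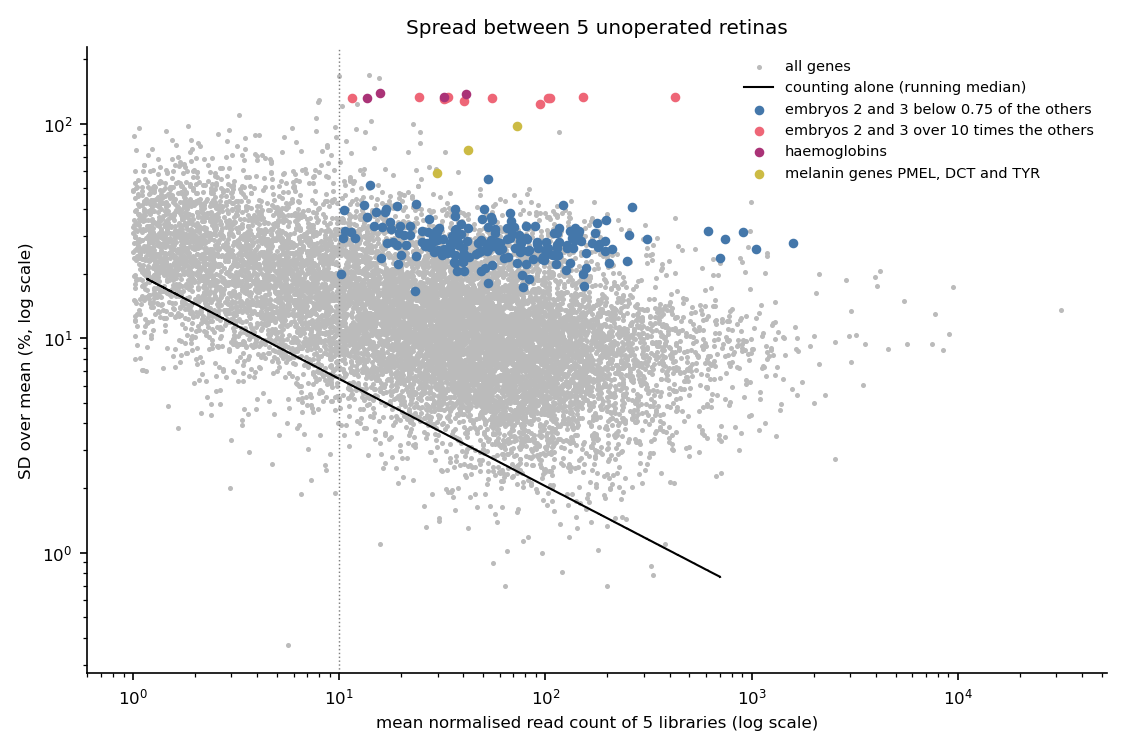
SD over mean (%, log scale) of every listed gene against its mean normalised read count (log scale) over 5 unoperated retinas, with the running median that counting alone would give. The dotted line marks a mean of 10. The 21 genes of that mean above 100% include 4 haemoglobins and the 12 genes high in embryos 2 and 3, which their selection rule places there. The 193 genes low in embryos 2 and 3 lie below 100%.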

How the data were processed

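Single retinas of 5 chicken embryos were profiled by RNA sequencing, and the values of their unoperated eyes were used. Per the labels' protocols, TRIzol and an RNeasy kit with DNase on the column gave the RNA, and TruSeq Stranded mRNA libraries were read on a NextSeq 500 from both ends for 75 bp. The batch label is 128 throughout. The deposited values are normalised read counts, a signal with column totals that the authors made nearly equal. Tools named in the submitters' processing notes, without their roles, are Subread 1.6.2, featureCounts, SAMtools 1.9, HISAT2 2.1.0, Trim Galore 0.6.4 and FastQC 0.11.8, and the chicken build named is GRCg6a. How the values were scaled, which annotation was counted and whether strand was used is not given in the sources used here.

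What 1 read is worth was taken from the spacing of low values, 0.0385 to 0.0439 units. Of the values up to 400 reads, 90.5% to 90.7% were whole multiples of it within a tolerance of 0.01. Whole reads were thus recovered for most of these values but not for all, and no count model was used. The counting spread is that of independent reads and covers counting error only.

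From these values, genes were ranked by the mean of 5 embryos. Shares of the library total were taken for the top genes and for 15 gene classes, and summed levels for 19 marker lists. The SD over the mean was taken for genes with a mean of at least 10. A gene was matched to a list by its exact symbol, and classes were matched in part by the start of the symbol. Of all symbols, 90.7% were in the RefSeq table of GRCg7b, which was used for names only, so no coordinates or sequences are given. Members and lists were chosen with earlier results of these data known. The text names the 25 genes of highest mean, the 20 of highest and 10 of lowest SD over mean with a mean of at least 50, PAX6, ATOH7 and ALDH1A1. It also names of each marker list the 4 members of highest mean and those of highest and lowest spread, and of each class the 2 of highest mean. Some genes that this rule selects are not reported here, and counts include them. Other genes are named as exceptions in the text. The alternatives were scaling to equal totals or by trimmed means, each embryo left out, medians for means, totals without mitochondrially encoded genes, no filter or a minimum mean of 50, the SD of the natural log of value + 1, and the counting part taken off. The filter on the median, counts over all members found, sums with single genes left out and ranges of single genes without embryo 5 were added after seeing the data. The scripts, in Python 3.11.15 (numpy 2.4.6, pandas 2.3.3, matplotlib 3.10.9), were tested on simulated data.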

Additional observations from a re-analysis of the deposited data

Results flagged for a closer look

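For each named gene and list sum, the gap between the most distant embryo and its neighbour was divided by the range of the 5 embryos, and values above 0.71 are given here, a limit that chance passes in about 1 in 20 groups. It was passed by 24 of 154 named genes (15.6%) and by 543 of all 9008 genes averaging at least 10 (6.03%). The named genes include the most variable ones by their rule, so the first share is no result. Not all of these genes are reported below.

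Embryo 5 was the distant one, on the high side, for the haemoglobin sum (0.938) and for the globins HBBR (0.945), HBZ (0.909) and HBA1 (0.952). It was so too for the collagen I chains COL1A1 (0.912) and COL1A2 (0.802), the melanosome gene PMEL (0.832), the epithelial genes KRT8 (0.867) and CDH1 (0.814), and the optic stalk sum (0.799) with its members PAX2 (0.862) and SEMA5A (0.783). Among retinal factors it was high for MEIS2 (0.761), OTX2 (0.747), LHX2 (0.7503) and SOX11 (0.713). Other genes with embryo 5 high were ACTB (0.719), NCL (0.774), SYNGR1 (0.798) and ZFHX3 (0.784).

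Embryo 5 was distant on the low side for the lens filament gene BFSP2 (0.733). Embryo 3 was high for CYTB (0.765) and LOC776067 (0.780). Embryo 1 was low for RDH10 (0.716) and high for CRYBA1 (0.735).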

How the results depend on the processing

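In all, 69 results were computed under their alternatives, giving 546 values, of which 514 stayed within the SD between embryos, or within 1.5 times for counts and ratios, and 32 moved. Rescaling to equal totals or by trimmed means moved 0 values. Shares of the total cannot change on rescaling a library, so for them this outcome was fixed in advance. The other values could change little, since the factors by trimmed means were 0.989 to 1.016. Taking the mitochondrially encoded genes out of the total moved 18 values, among them the share of the top 100 genes to 16.5% (22.6% with them), of ribosomal proteins to 5.88% (5.37%) and of glycolysis to 1.34% (1.22%). Leaving out 1 embryo moved 4 values, each time embryo 5. The range of the pigment list was 1.53 to 2.32 times over these settings, that of the mesenchyme list 1.76 to 2.84 times, and the number of genes with an SD above 50% of the mean 31 to 74. That number was 261 with no filter and 9 with a mean of at least 50, against 60. The red cell list fell to a sum of 110.7 without CA2 (3145 with it), and its range was 12.6 times without CA2 and 13.5 times by the median of its members, against 1.12 times for the sum. The median of the members gave a wider range than the sum for the lens list (3.86 against 1.35 times), the photoreceptor, horizontal and amacrine list (2.58 against 1.71), surface ectoderm (2.58 against 1.38) and the anterior rim (2.197 against 1.2048). The median SD over mean lay between 7.98% and 12.4% over its alternatives. Values per coding length were not run, since no table of coding lengths was used here. No paired analysis was possible because only 1 group of retinas enters the values. Depth limits genes of low level, for which counting gives a median spread of 10.9% at means of 1 to 10 and 21.9% below 1.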
